A study of Mus musculus with 16 samples.

Results

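The 6 genes described here are the primitive endoderm transcription factors Gata4, Gata6, Sox7, Sox17 and Hnf4a, together with the receptor gene Pdgfra, in mouse embryonic stem (ES) cells that had lost Rybp or kept it. Every probe set that the platform annotation assigns to 1 of these symbols alone was taken, which gave 16 of 45037 probe sets and 6 of 18193 gene symbols. The study compared ES cells of a 129/B6 hybrid background with and without Rybp, a subunit of variant forms of the Polycomb repressive complex PRC1. Total RNA from clones 10 and 15 was hybridised to 16 Affymetrix arrays. The groups were KO cells at day 12, control cells at day 12, KO cells at day 4 and control cells at day 4, with 4 arrays each, made of replicates 1 and 2 of both clones. KO cells had received 4-hydroxytamoxifen (OHT) at 800 nM for 24 hours and are labelled as Rybp-deficient. Control cells are the same clones without OHT, labelled as the wild type, and the labels do not say from when the days were counted. No control group received OHT, so an effect of OHT cannot be told apart from loss of Rybp. All cells grew in serum with ESGRO (leukaemia inhibitory factor), either over irradiated embryonic fibroblasts or on a gelatin coat, and the surface used for each array is not labelled. Whether replicates came from separate cultures is not labelled, so a p-value here reflects array-to-array spread that may be technical.

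Primitive endoderm is the extraembryonic lineage that separates from the epiblast inside the blastocyst and later forms the visceral and parietal endoderm of the yolk sacs. FGF signalling through ERK favours it and Nanog opposes it. Gata6 acts early in its specification, Gata4, Sox17 and Sox7 follow, Hnf4a serves in the visceral endoderm, and Pdgfra marks the lineage at the cell surface. ES cells express these genes weakly as a population, and forced expression of Gata6, Gata4 or Sox17 drives them to an extraembryonic endoderm fate.

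GATA and SOX proteins bind DNA at short core sequences, so the promoters of the 2 members with an entry in the RefSeq promoter table (build GRCm38.p6, plus strand) are printed with those cores marked. The table gave 3 promoter windows, and Gata4, Gata6, Sox7 and Sox17 are named only. The searched letters were GATAA for GATA factors (TTATC on the other strand) and ACAAT for SOX factors (ATTGT on the other strand), which do not overlap in these windows. Capitals mark the matches. The upstream Hnf4a window (chr2:163506607-163506810) holds 204 bases before the earliest annotated start of the gene, with 1 GATAA and 1 ACAAT. The inner Hnf4a window (chr2:163546905-163547154) and the Pdgfra window (chr5:75152001-75152250) hold 250 bases before an annotated start, with 0 matches to either core. The inner Hnf4a start lies inside the gene, and whether the Pdgfra start does was not established. Of 32851 promoters in the table, 22.6% hold the GATA core and 27.7% the SOX core within their 250 upstream bases. These matches describe letters and do not show binding.
Hnf4a, upstream start: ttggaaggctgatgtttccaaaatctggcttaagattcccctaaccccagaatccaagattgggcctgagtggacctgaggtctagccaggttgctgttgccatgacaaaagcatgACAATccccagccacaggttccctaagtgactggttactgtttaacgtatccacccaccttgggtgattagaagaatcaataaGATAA
Hnf4a, inner start: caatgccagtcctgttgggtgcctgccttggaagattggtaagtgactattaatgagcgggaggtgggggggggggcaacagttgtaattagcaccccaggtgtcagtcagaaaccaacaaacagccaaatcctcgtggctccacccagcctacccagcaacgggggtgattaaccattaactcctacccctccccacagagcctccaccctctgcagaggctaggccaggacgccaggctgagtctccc
Pdgfra: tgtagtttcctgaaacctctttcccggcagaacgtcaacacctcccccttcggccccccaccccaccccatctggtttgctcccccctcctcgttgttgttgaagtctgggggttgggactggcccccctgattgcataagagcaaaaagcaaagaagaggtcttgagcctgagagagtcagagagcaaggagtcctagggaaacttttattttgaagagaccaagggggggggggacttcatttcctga

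The values are deposited linear intensities, and all 16 arrays share 1 distribution with a median of 93.3. Fold changes are on the log2 scale, from a limma fit to every probe set with Benjamini-Hochberg adjustment over all 45037, and a probe set is called here at an adjusted p under 0.05. Where a count at an unadjusted p under 0.05 is given below, the share of all probe sets at that level was not counted. The error beside an intensity is the SD over 4 arrays, and the error beside a log2 fold change is its standard error. The targeted transcript was low in KO cells. Probe set 1421111_at, annotated to Rybp and to its pseudogene Rybp-ps, read 189 ± 74.6 in KO cells against 3029 ± 334 in control cells at day 12, and 97.4 ± 18.5 against 2753 ± 609 at day 4. The groups did not overlap at either day (log2 change -4.09 ± 0.25, limma adjusted p = 4.1e-06, and -4.81 ± 0.25, limma adjusted p = 8.43e-07). The other probe set with these symbols, 1428219_at, averaged 4199 ± 997 in KO cells and 959.9 ± 963 in control cells at day 12. Those control arrays read 1404 and 2108 in clone 10 and 157 and 170 in clone 15. KO was higher in 4 of 4 pairs of the same clone and replicate number at each day, and limma called neither difference. Which part of the transcript either probe set reads is not known here.

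Each of the 6 genes had at least 1 probe set called higher at day 12 than at day 4 in KO cells, by 3.77-fold to 20.3-fold, and Hnf4a had 1 of 4. In control cells the same direction was seen for all 16 probe sets, and Gata6, Sox17 and Hnf4a passed the test. In KO cells 10 of the 16 probe sets were called higher and 0 lower, against 0.868% and 0.349% of all probe sets. In control cells 3 of 16 were called higher and 0 lower, against 0.302% and 0.0999% of all. The arrays of the days did not overlap for 12 of 16 probe sets in KO cells and for 11 of 16 in control cells, all higher at day 12. Of all probe sets 5.18% in KO cells and 3.54% in control cells did not overlap and were higher, and 4.12% and 3.64% were lower. The median log2 fold change over the 16 probe sets was 2.71 in KO cells and 1.82 in control cells, and over all probe sets it was -0.01 in KO cells and -0.00221 in control cells. In RNA from whole cultures, fewer cells of a type and less RNA per cell cannot be told apart, so these values do not say how many cells expressed the genes.

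**Figure D1:**
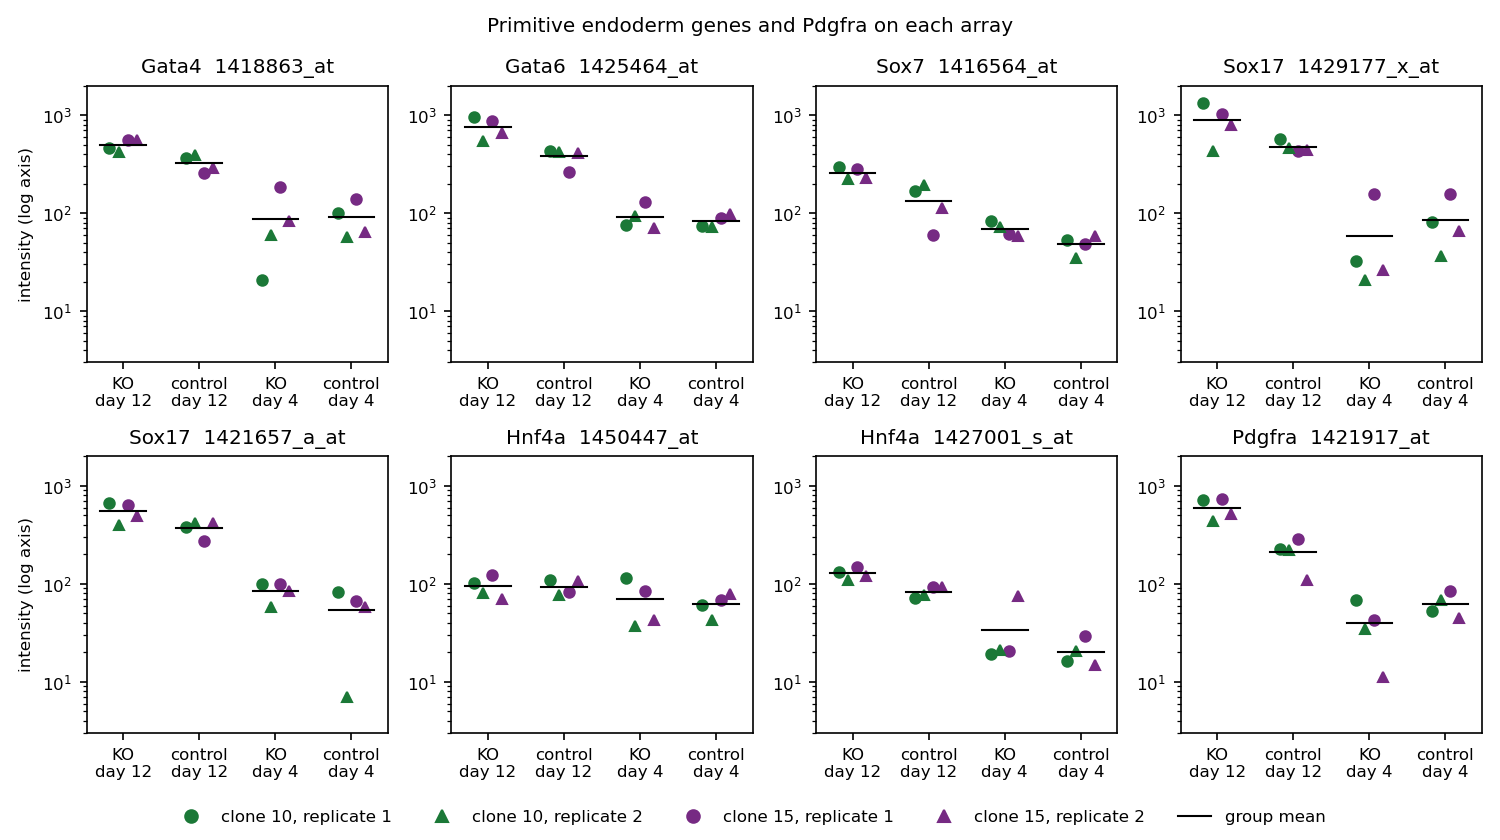
Intensity on a log axis of 8 probe sets of the 6 genes on each of the 16 arrays, with KO left of control at day 12 and at day 4; symbols show clone and replicate number and the line is the group mean. For 7 of these 8 probe sets every day 12 array lies above every day 4 array of the same condition, and Hnf4a 1450447_at is the one whose days overlap.

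Gata6, a zinc-finger factor that acts at the start of primitive endoderm specification, had the smallest adjusted p of the 6 genes for the day effect in both KO and control cells. In the order clone 10 replicates 1 and 2, then clone 15 replicates 1 and 2, which all lists of 4 arrays below follow, its probe set 1425464_at read 956, 548, 873 and 661 in KO cells at day 12, against 76.0, 93.6, 129.7 and 70.8 in KO cells at day 4. It read 436, 419, 265 and 408 in control cells at day 12, against 73.3, 71.7, 89.5 and 97.3 in control cells at day 4. Every day 12 array was above every day 4 array, and at day 12 the KO arrays were all above the control arrays. The log2 fold change from day to day was 3.04 ± 0.25 in KO cells (limma adjusted p = 9.08e-05) and 2.19 ± 0.25 in control cells (limma adjusted p = 0.00185). Both calls were kept in all 16 fits that left out 1 array. A dimmer probe set of Gata6, 1425463_at, read 250.2 to 352 at day 12 against 18.6 to 55.2 at day 4 in KO cells, and 116 to 238 against 3.66 to 79.1 in control cells. Its days did not overlap in either condition, and it missed the threshold in both (3.20 ± 0.73, limma adjusted p = 0.0553, and 3.10 ± 0.73, limma adjusted p = 0.108). At day 4, 2 of 4 arrays in each condition were at or under 28.2, the 25th percentile of all intensities. With lower values set to 28.2 as a floor, both changes of 1425463_at were called, 2.92 in KO cells (limma adjusted p = 0.00102) and 2.25 in control cells (limma adjusted p = 0.00996). The control change was then 4.75-fold, against 8.59-fold without the floor. The third, 1443081_at, stayed between 1.90 and 67.5 over all 16 arrays, and its groups overlapped throughout.

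Gata4, the related GATA factor that comes on after Gata6 and is used as a marker of differentiating primitive endoderm, followed the same direction. Probe set 1418863_at read 469, 419, 554 and 565 in KO cells at day 12, against 20.9, 60.0, 186 and 84.2 in KO cells at day 4. The control arrays read 370.3, 396, 256 and 292 at day 12, against 101, 56.7, 141 and 65.0 at day 4. The day 4 arrays were spread widely, most of all in KO cells, where replicate 1 of clone 10 was lowest and replicate 1 of clone 15 highest, yet the days did not overlap. The change was called in KO cells (2.90 ± 0.48, limma adjusted p = 0.0109) and missed the threshold in control cells (1.93 ± 0.48, limma adjusted p = 0.132). The other Gata4 probe set, 1418864_at, gave 2.96 ± 0.46 (limma adjusted p = 0.00751) in KO cells and 2.13 ± 0.46 (limma adjusted p = 0.0823) in control cells. It read 223 to 301 at day 12 against 18.3 to 48.4 at day 4 in KO cells, and 121 to 201 against 19.4 to 107 in control cells.

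Sox17, an HMG-box factor of primitive and definitive endoderm, was called higher at day 12 in KO cells through both of its probe sets. Its probe set 1429177_x_at read 1349, 436, 1021 and 792 in KO cells at day 12, against 32.8, 20.9, 156 and 26.4 in KO cells at day 4. Control cells gave 571, 462, 432 and 442 at day 12, against 81.3, 36.3, 158 and 65.1 at day 4. In KO cells at day 4 replicate 1 of clone 15 stood well above the other 3 arrays, and at day 12 replicate 2 of clone 10 was the lowest and lay among the control arrays. The log2 fold change between days was 4.34 ± 0.57 in KO cells (limma adjusted p = 0.00252), called in all 16 fits that left out 1 array. In control cells it was 2.67 ± 0.57 and missed the threshold (limma adjusted p = 0.0764).

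The second Sox17 probe set was called in both conditions, close to the threshold. 1421657_a_at read 675, 399, 636 and 488 in KO cells at day 12, against 98.5, 57.8, 98.7 and 84.4 in KO cells at day 4. Control cells gave 383, 414, 275 and 415 at day 12, against 83.2, 7.03, 66.8 and 58.3 at day 4. The days did not overlap in either condition, and replicate 2 of clone 10 was far below the other day 4 control arrays. The log2 fold change was 2.70 ± 0.59 in KO cells (limma adjusted p = 0.04998) and 3.24 ± 0.59 in control cells (limma adjusted p = 0.0392). Leaving out each array in turn kept each of these calls in 2 of 16 fits, with limma adjusted p up to 0.134 in KO cells and 0.127 in control cells. The control value of 1421657_a_at was 2.41 without replicate 2 of clone 10 at day 4, and 2.74 with the floor.

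Sox7, the SOX factor of parietal endoderm and of endothelium, was called higher at day 12 in KO cells through 1 of its 2 probe sets. Probe set 1416564_at read 298, 225, 282 and 231 in KO cells at day 12, against 83.3, 73.1, 60.7 and 58.6 in KO cells at day 4. Control cells gave 169, 196, 59.6 and 114 at day 12, against 53.6, 34.6, 48.9 and 58.9 at day 4. In control cells at day 12 the clone 15 arrays were both below the clone 10 arrays, and replicate 1 of clone 15 lay close to the highest day 4 array. The change was called in KO cells (1.91 ± 0.30, limma adjusted p = 0.00742) and missed the threshold in control cells (1.35 ± 0.30, limma adjusted p = 0.0892). The dim probe set 1432495_at read 3.76 to 65.9 over all 16 arrays, with a log2 change of -1.88 ± 0.85 in KO cells (limma adjusted p = 0.377), opposite in sign to the other Sox7 probe set, and its days overlapped. In control cells it changed by 0.81 ± 0.85, and by -0.11 with the floor, neither called.

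Hnf4a, a nuclear receptor of visceral endoderm and liver, gave different answers from its 4 probe sets. Probe set 1427001_s_at read 132, 110.2, 147 and 121 in KO cells at day 12, against 19.4, 20.9, 20.7 and 75.2 in KO cells at day 4. The control arrays read 72.1, 76.3, 91.9 and 93.4 at day 12, against 16.4, 20.4, 29.3 and 14.8 at day 4. The days did not overlap, and replicate 2 of clone 15 stood above the other day 4 KO arrays. The log2 fold change was 2.17 ± 0.35 in KO cells (limma adjusted p = 0.00854) and 2.09 ± 0.35 in control cells (limma adjusted p = 0.0231). The KO call was kept in all 16 fits that left out 1 array and the control call in 9, with an adjusted p up to 0.081. The probe set of Hnf4a with the highest mean, 1450447_at, read 103, 81.3, 123 and 69.7 at day 12 and 114, 36.7, 83.9 and 43.1 at day 4 in KO cells, and its days overlapped in both conditions. Its log2 fold changes were 0.56 ± 0.35 in KO cells (95% interval -0.19 to 1.31) and 0.61 ± 0.35 in control cells (-0.14 to 1.36). Probe set 1421983_s_at gave 0.53 ± 0.21 in KO cells and 0.14 ± 0.21 in control cells, neither called. The dim 1427000_at read 18.6 to 58.0 at day 12 against 5.62 to 31.7 at day 4 in KO cells. It read 32.7 to 63.9 against 2.01 to 18.2 in control cells, where all 4 day 4 arrays were at or under the 25th percentile. With the floor its changes were 0.38 in KO cells and 0.75 in control cells, and neither was called with or without it. Which of the Hnf4a start sites printed above a probe set reads was not tested.

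Pdgfra, the receptor tyrosine kinase for PDGF that marks primitive endoderm cells at their surface, was called higher at day 12 in KO cells through all 3 of its probe sets. Probe set 1421917_at read 722, 435, 728 and 517 in KO cells at day 12, against 68.9, 34.9, 42.5 and 11.3 in KO cells at day 4. In control cells it read 225, 224, 284 and 110.2 at day 12, against 53.0, 67.7, 83.9 and 44.8 at day 4. The days did not overlap in either condition, and all day 12 KO arrays were above all day 12 control arrays. The log2 fold change between days was 4.16 ± 0.46 in KO cells (limma adjusted p = 0.000830), a 17.9-fold change. In control cells it was 1.72 ± 0.46 and missed the threshold (limma adjusted p = 0.162). In KO cells the other Pdgfra probe sets changed as well, 1421916_at by 2.73 ± 0.43 (limma adjusted p = 0.00803) and 1438946_at by 3.13 ± 0.64 (limma adjusted p = 0.0365). For 1438946_at, 3 of 4 KO arrays at day 4 were at or under the 25th percentile, and its change was 3.46-fold with the floor against 8.74-fold without. That call was kept in 4 of 16 fits that left out 1 array, with an adjusted p up to 0.116. In control cells their changes were 0.95 ± 0.43 and 0.81 ± 0.64, neither called.

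**Figure D2:**
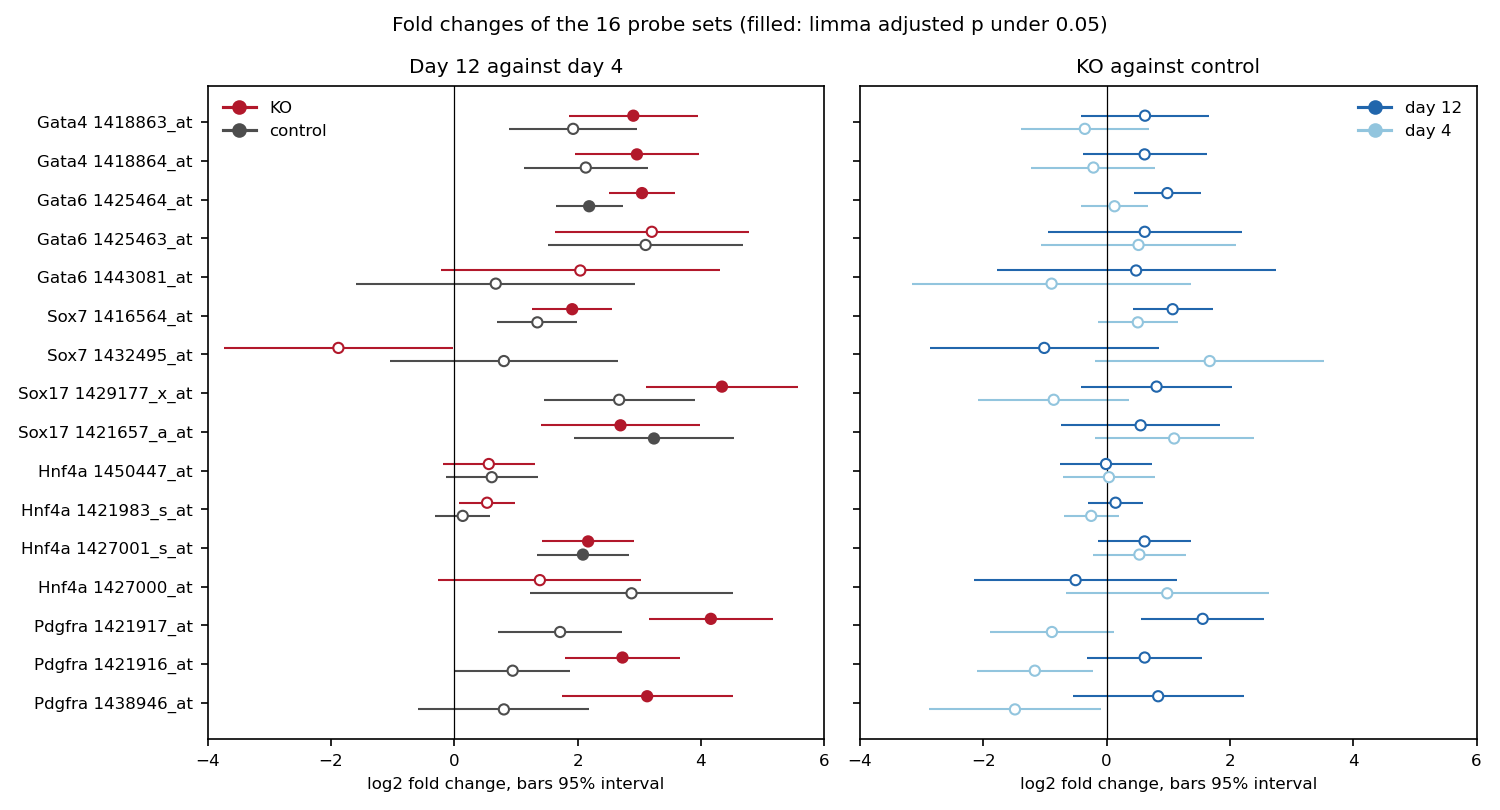
Log2 fold changes of the 16 probe sets with 95% intervals, on the left day 12 against day 4 in KO and control cells, on the right KO against control at day 12 and day 4; filled points are called by limma at an adjusted p under 0.05. On the left 10 KO and 3 control points are filled, and on the right none are.

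None of the 16 probe sets was called between KO and control cells at either day. At day 12 the probe sets of Pdgfra, Gata6 and Sox7 with the highest means had fitted differences of 2.94-fold, 1.98-fold and 2.10-fold, not called, and all KO arrays were above all control arrays. limma called 0 of 16 at day 12, with 3 at an unadjusted p under 0.05, where 1.21% of all probe sets were called in either direction, 0.877% higher and 0.335% lower. With the 8 pairs of KO and control arrays as a block it also called 0 of 16, against 1.33% of all probe sets higher and 0.961% lower. The KO and control arrays did not overlap for 8 of 16 probe sets, all higher in KO cells, against 5.3% of all probe sets higher and 4.1% lower. KO was higher in 4 of 4 pairs of the same clone and replicate number for 8 of 16 and lower for 0, against 13.2% and 13.5% of all. The median log2 fold change over the 16 probe sets was 0.62, and -0.02 over all probe sets.

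At day 12 Pdgfra 1421917_at averaged 601 ± 148 in KO cells and 211 ± 72.6 in control cells, with a log2 change of 1.56 ± 0.46 (95% interval 0.56 to 2.56, limma adjusted p = 0.172). With the pair block the limma adjusted p was 0.0842, and with the floor of 28.2 it was 0.0309, past the threshold, as it was at 0.0406 on log2(value + 16). Gata6 1425464_at averaged 759.7 ± 188 in KO cells and 382 ± 78.9 in control cells, 0.98 ± 0.25 (0.44 to 1.53, limma adjusted p = 0.0953). The Gata6 1425464_at difference passed the threshold among probe sets with a mean above the median (limma adjusted p = 0.0294), with 1 probe set a gene (0.0484) and with a robust prior variance that follows the mean (0.0485). Sox7 1416564_at averaged 259 ± 36.6 in KO cells and 134 ± 60.4 in control cells, 1.07 ± 0.30 (0.42 to 1.72, limma adjusted p = 0.140), with an adjusted p of 0.0484 among probe sets above the median. Gata4 1418863_at averaged 502 ± 69.8 in KO cells and 328 ± 65.5 in control cells, with no overlap, and its log2 fold change was 0.62 ± 0.48 (-0.42 to 1.66). Hnf4a 1427001_s_at averaged 128 ± 15.7 in KO cells and 83.4 ± 10.8 in control cells, again with no overlap, at 0.62 ± 0.35 (-0.14 to 1.37). Sox17 1429177_x_at averaged 899.8 ± 384 in KO cells and 477 ± 64.3 in control cells, and these groups overlapped through replicate 2 of clone 10 (0.81 ± 0.57, -0.42 to 2.04).

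At day 4 the KO and control arrays overlapped for all 16 probe sets, 8 fitted log2 fold changes were above 0 and 8 below, and their median was -0.09. limma called 0 of 16, with 2 at an unadjusted p under 0.05, where 0.242% of all probe sets were called in either direction, 0.226% higher and 0.0155% lower. The pair block also called 0, against 0.18% higher and 0.0244% lower. Of all probe sets 2.35% did not overlap and were higher in KO cells, and 1.92% were lower. KO was higher in 4 of 4 pairs for 1 of the 16, Sox17 1421657_a_at, against 10.3% of all. It was lower in 4 of 4 pairs for 1 of the 16, Sox17 1429177_x_at (-1.31 to -0.02), against 11.4% of all. 1421917_at averaged 39.4 ± 23.7 in KO cells and 62.4 ± 17.2 in control cells, with a log2 change of -0.89 ± 0.46 (limma adjusted p = 0.811). For 1421916_at it was -1.16 ± 0.43 (unadjusted p = 0.0189, limma adjusted p = 0.561) and for 1438946_at -1.49 ± 0.64 (unadjusted p = 0.0378, limma adjusted p = 0.692). These fitted values varied with clone and number. 1421916_at had -0.28 ± 0.52 in clone 10 and -2.04 ± 0.52 in clone 15. 1438946_at had 0.08 ± 0.69 for number 1 and -3.06 ± 0.69 for number 2, and -0.48 over all arrays with the floor. Replicate 2 of clone 15 was the lowest KO array for 1421917_at and 1421916_at. Gata6 1425464_at averaged 92.5 ± 26.6 in KO cells and 82.9 ± 12.5 in control cells, 0.13 ± 0.25 (-0.41 to 0.67), an interval that reaches less than 1 doubling in either direction. The Sox17 probe sets had opposite signs at day 4, -0.86 ± 0.57 for 1429177_x_at and 1.09 ± 0.59 for 1421657_a_at.

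The KO effect was also compared between days, which is the same as the difference between the day effects of KO and control cells. limma called 0 of 16 probe sets and 0% of all probe sets, with 5 of the 16 at an unadjusted p under 0.05. Those 5 were the 3 probe sets of Pdgfra, Gata6 1425464_at and the dim Sox7 1432495_at, the last with a negative sign. The share of all probe sets at that unadjusted level was not counted, so the 5 are no result about the members. Pdgfra 1421917_at had a KO effect larger at day 12 by 2.44 ± 0.65 (95% interval 1.03 to 3.86, unadjusted p = 0.00260, limma adjusted p = 0.982). Gata6 1425464_at had one larger by 0.86 ± 0.35 (0.09 to 1.62, unadjusted p = 0.0313, limma adjusted p = 1). A call in KO cells and none in control cells for Gata4, Sox7 and Pdgfra therefore does not stand for a difference between the conditions, which was tested and not called.

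The day effects had the same sign in both clones and under both replicate numbers for the 7 probe sets in the plot of effects by clone and number. These 7 came from each gene's probe set with the highest mean and the probe sets called in control cells. Of these, only probe sets called between days on the same arrays were kept, so the shared sign is no independent support. Gata4 1418864_at, Pdgfra 1421916_at and Pdgfra 1438946_at were called in KO cells and were not plotted. Among the other probe sets not plotted, Sox7 1432495_at gave 2.02 in clone 10 and -0.40 in clone 15 in control cells. Gata6 1443081_at gave -0.18 in clone 10 and 1.53 in clone 15 there. In KO cells Gata6 1425464_at gave 3.10 ± 0.37 in clone 10 and 2.99 ± 0.37 in clone 15. Control cells gave 2.56 ± 0.37 in clone 10 and 1.82 ± 0.37 in clone 15. Pdgfra 1421917_at in KO cells gave 3.51 ± 0.67 in clone 10 and 4.81 ± 0.67 in clone 15. The clones had the same direction for both genes. The KO effect of Pdgfra 1421917_at at day 12 was 1.32 ± 0.67 in clone 10, 1.79 ± 0.67 in clone 15, 1.52 ± 0.52 for replicate number 1 and 1.59 ± 0.52 for number 2. For Gata6 1425464_at it was 0.76 ± 0.37 in clone 10, 1.21 ± 0.37 in clone 15, 1.43 ± 0.33 for number 1 and 0.54 ± 0.33 for number 2. Sox7 1416564_at had the lowest unadjusted p for a difference between clones. Its KO effect at day 12 was 1.63 ± 0.34 in clone 15 and 0.51 ± 0.34 in clone 10, and its control day effect was 0.62 ± 0.34 in clone 15 and 2.08 ± 0.34 in clone 10 (unadjusted p = 0.0430 and 0.0131 for the differences, limma adjusted p = 1 for both). In tests of the difference itself, limma called 0 of 16 probe sets for the KO effect at day 12, the KO effect at day 4 or the control day effect, with 1 of 16 at an unadjusted p under 0.05 in each, Sox7 1416564_at for the KO effect at day 12 and for the control day effect and Pdgfra 1421916_at for the KO effect at day 4 (-1.76 ± 0.74, clone 15 minus clone 10, unadjusted p = 0.0399, limma adjusted p = 0.9999). Of all probe sets 0%, 0.00222% and 0% were called.

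**Figure D3:**
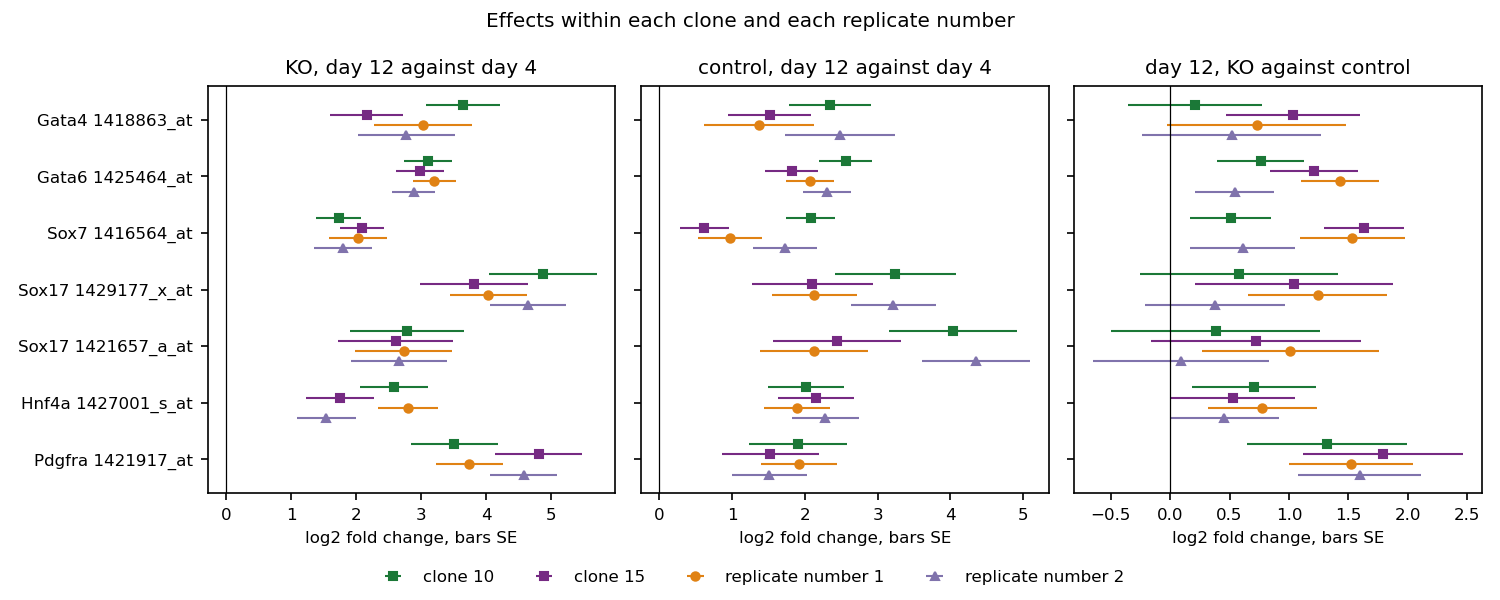
Log2 fold changes of 7 probe sets with standard errors, estimated within clone 10, clone 15, replicate number 1 and replicate number 2, for day 12 against day 4 in KO cells and in control cells and for KO against control at day 12. These 7 came from each gene's probe set with the highest mean and the probe sets called in control cells. They were kept because they were called between days on the same arrays. All day effects lie above 0, and those in control cells are larger in clone 10 than in clone 15 for 6 of the 7, all but Hnf4a 1427001_s_at, differences that were not called. For Sox17 1421657_a_at the control difference, clone 15 minus clone 10, lay between -3.39 and 0.18 when 1 array was left out.

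Arrays with different replicate numbers differed over the whole table at day 4 and little at day 12. Between replicates 1 and 2, 0.00666% of all probe sets were called in KO cells at day 12 and 0.0155% in control cells at day 12, against 9.52% in KO cells and 8.84% in control cells at day 4. Of the 16 probe sets 0 were called in either condition at day 12, with 0 at an unadjusted p under 0.05. At day 4 limma called 1 in KO cells, Hnf4a 1450447_at, higher in replicate 1 by 1.30 (limma adjusted p = 0.0394). In control cells it called 2, Gata4 1418864_at, higher in replicate 1 by 1.81 (limma adjusted p = 0.0397), and Gata6 1425463_at, lower in replicate 1, with a log2 difference of -2.69 (limma adjusted p = 0.0403). What the replicate numbers stand for is not stated. How much of the day 4 spread of the 16 probe sets lies between replicate numbers was not estimated.

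Other genes of extraembryonic endoderm were also higher at day 12. Of 37 measured genes of that list, which leaves out the 6 members, 22 were called higher and 0 lower in KO cells and 18 were called higher and 0 lower in control cells, against 1.22% and 0.402% of all probe sets in either direction. Their median log2 fold change was 1.78 in KO cells and 1.63 in control cells. In control cells the basement membrane collagen Col4a1 changed by 3.34 ± 0.47 (limma adjusted p = 0.00810) and the laminin chain Lama1 by 2.67 ± 0.39 (0.0108). The endocytic adaptor Dab2 changed by 3.09 ± 0.35 (0.00185), and Amn, the partner of cubilin in visceral endoderm uptake, by 2.33 ± 0.21 (0.000389). The keratins Krt8 and Krt18 gave 2.24 ± 0.24 and 1.72 ± 0.19 (0.00139 and 0.00157), and the transport protein Ttr 2.99 ± 0.44 (0.0108). In KO cells Cubn, the cubilin receptor itself, changed by 5.85 ± 0.73 (0.00195) and Dab2 by 4.00 ± 0.35 (0.000148). The list was drawn up with results of these arrays known, so it is no independent support for the 6 genes.

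KO against control at day 12, 4 of the 37 were called higher and 0 lower, against 1.21% of all probe sets, with a median log2 fold change of 0.45. They were the endocytic receptor Lrp2, which averaged 2209 in KO cells and 1024 in control cells (1.14 ± 0.23, limma adjusted p = 0.0363), Amn (1.08 ± 0.21, 0.0278), and the collagen chaperone Serpinh1 and collagen prolyl hydroxylase P4ha2 (0.72 ± 0.16 and 1.17 ± 0.16, 0.0492 and 0.00427). This count was at most 3 when any 1 array was left out. It fell to 1 without KO day 12 replicate 1 of either clone, KO day 12 replicate 2 of clone 10, control day 12 replicate 1 of either clone or control day 12 replicate 2 of clone 15. It fell to 2 without KO day 4 replicate 1 of clone 15 or replicate 2 of clone 10, or without control day 4 replicate 1 or 2 of clone 15. Serpinh1 and P4ha2 were also the 2 genes called at day 4 (0.87 ± 0.16 and 1.10 ± 0.16, limma adjusted p = 0.0494 and 0.0134), against 0.242% of all probe sets. With 1 array left out the day 4 count was 0 to 2. It was 0 without control day 4 replicate 1 of either clone, control day 4 replicate 2 of clone 10 or KO day 4 replicate 1 of clone 15. It was 2 without control day 12 replicate 1 of clone 15 or control day 4 replicate 2 of clone 15, and 1 without any of the other 10 arrays. Both act on collagen in many cell types.

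**Figure D4:**
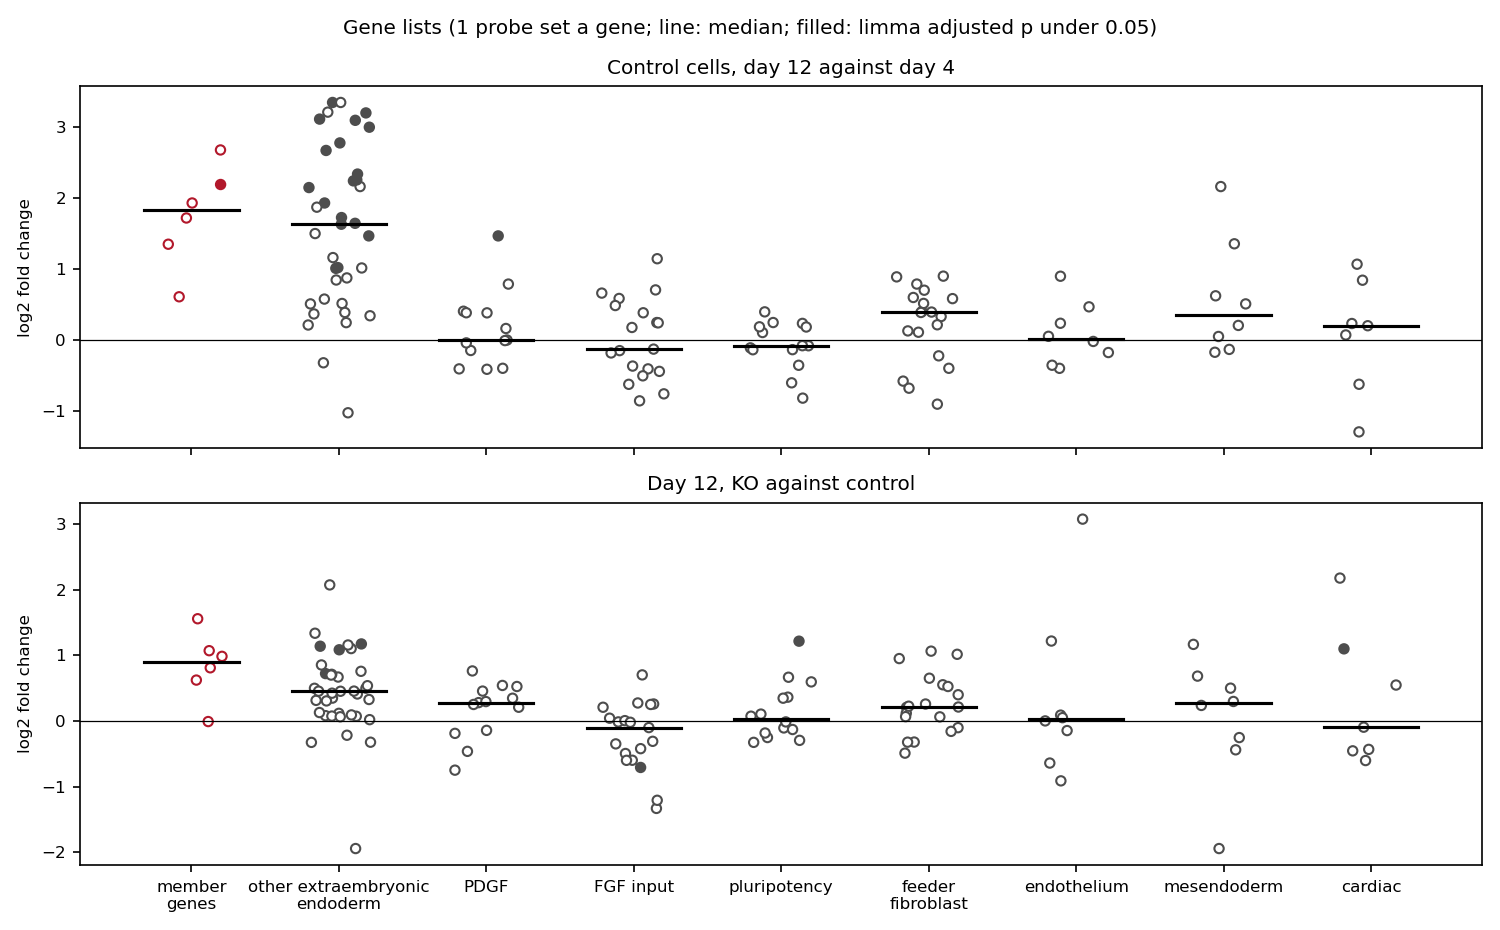
Log2 fold changes of the member genes and of 8 of the 10 gene lists, 1 probe set a gene, with the list median as a line and called genes filled; the upper panel shows control cells at day 12 against day 4 and the lower panel KO against control at day 12. The member genes and the other extraembryonic endoderm genes have medians well above 0 in the upper panel, and the other 7 list medians there lie between -0.13 and 0.39. The trophectoderm and ES cell lists, with medians of 0.42 and -0.10 there, are not plotted.

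Of the ligands, receptors and partners around Pdgfra, 1 of 13 was called. It was Plat, whose protease product can activate PDGF-CC, higher at day 12 in KO cells (1.59 ± 0.28, limma adjusted p = 0.0170) and in control cells (1.47 ± 0.28, limma adjusted p = 0.0485). Plat is also on the extraembryonic endoderm list. For KO against control limma called 0 of the 13 at day 12, with 3 at an unadjusted p under 0.05, and 0 at day 4, with 1. The ligand Pdgfc, the lowest of the list at day 12, averaged 487 in KO cells and 812 in control cells (-0.75 ± 0.19, limma adjusted p = 0.0854). The receptor gene Kit and the receptor-like gene Pdgfrl gave 0.54 ± 0.20 and 0.76 ± 0.39 at day 12, and the signalling phospholipase gene Plcg1 gave -0.46 ± 0.25.

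Of 19 genes of FGF input to primitive endoderm, Il17rd (Sef, a membrane inhibitor of FGF receptor signalling) was the only one called. At day 12 it was lower in KO cells than in control cells (-0.71 ± 0.11, limma adjusted p = 0.0104), and in KO cells it was lower at day 12 than at day 4 (-0.70 ± 0.11, limma adjusted p = 0.0101). In control cells limma called 0 of 19 between days, with 7 at an unadjusted p under 0.05. The fitted values there lay lowest for Fos (-0.86 ± 0.56) and Etv4 (-0.76 ± 0.21), both transcription factors downstream of ERK, and highest for the receptor Fgfr4 (0.66 ± 0.23) and the phosphatase Dusp4 (0.71 ± 0.32), among genes with a mean above the median. Of 14 pluripotency genes, Tbx3, a T-box factor of ES cells that is also linked to extraembryonic endoderm, was the only one called, higher in KO cells at day 12. It averaged 859.6 in KO cells and 374 in control cells (1.22 ± 0.24, limma adjusted p = 0.0294). For KO against control, 5 of the 14 were at an unadjusted p under 0.05 at day 12 and 1 at day 4. The list median was 0.03 at day 12 and 0.07 at day 4. Between days limma called 0 of the 14 in KO cells, with 1 at an unadjusted p under 0.05, and 0 in control cells, with 2. Nanog, which opposes Gata6, gave 0.15 ± 0.13 between days in KO cells and -0.11 ± 0.13 in control cells.

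Pdgfra, Sox7, Sox17 and the GATA factors are also expressed outside primitive endoderm, so markers of other cell types were read beside them. Of 19 measured fibroblast markers only Acta2 was called, higher at day 12 in KO cells (0.81 ± 0.14, limma adjusted p = 0.0174), and the list median was 0.39 in KO cells and 0.39 in control cells. The summed fibroblast level was 7034 to 8606 in KO cells and 6388 to 7466 in control cells at day 12, and 4546 to 6306 in KO cells and 4474 to 5348 in control cells at day 4. It thus moved with the day as Pdgfra did, its part in the Pdgfra result was not tested, and 0 of its markers were at or under the 25th percentile on all 4 arrays of a group. Of 8 endothelial markers limma called 0 between days in KO cells, with 2 at an unadjusted p under 0.05, and 0 in control cells, with 0, and the list had summed levels of 1414 to 1530.2 in KO cells and 1422 to 1886 in control cells at day 12 and of 1153 to 1449 and 1225 to 1770.0 at day 4. In each group 1 or 2 of these 8 markers were at or under the 25th percentile on all 4 arrays. Of 8 mesendoderm and definitive endoderm markers only Foxa2, which visceral endoderm also expresses, was called, in KO cells between days (2.27 ± 0.47, limma adjusted p = 0.0375). The summed level of that list was 656.2 to 873 in KO cells and 608 to 777 in control cells at day 12, and 438 to 569 and 424 to 518 at day 4, and its part was not tested. Foxa2, which is also on the extraembryonic endoderm list, averaged 280 in KO cells and 191 in control cells at day 12. At day 4 it averaged 64.2 in KO cells and 48.9 in control cells, so it made up much of the change in this sum. Of 7 cardiac markers, Myl7 was called at day 12 and Myh6 at day 4, both higher in KO cells (1.10 ± 0.23 and 2.99 ± 0.55). Their summed level was 591 to 761 in KO cells and 365 to 487 in control cells at day 12, and 637 to 931 in KO cells and 352 to 547 in control cells at day 4. This sum was higher in every KO array than in every control array of the same day. The median log2 fold change of the 7 cardiac markers for KO against control was -0.10 at day 12 and 0.54 at day 4. The part of these markers in the GATA values was not tested. Of 7 trophectoderm markers, Cdx2 and Gata3 were called higher in KO cells at day 12 (2.54 ± 0.47 and 2.47 ± 0.43). Their group means did not pass 47.5, below the median intensity. Cdx2 was called lower at day 12 than at day 4 in control cells (-2.76 ± 0.47) and Tfap2c in KO cells (-0.64 ± 0.14). The summed trophectoderm level was 2492 to 2938 in KO cells and 1962 to 2346 in control cells at day 12, and 3114 to 3506 in KO cells and 2302 to 2893 in control cells at day 4, and its part was not tested. Of 6 ES cell markers limma called 0 in any of the 4 comparisons. For KO against control at day 12, 3 were at an unadjusted p under 0.05, with a list median of -0.19. Of these markers 1 was at that level between days in KO cells, and 0 in the other comparisons. Their summed level, the check of the labelled cell type, was 76155 to 91945 in KO cells and 86721 to 105991 in control cells at day 12, and 88058 to 95358 in KO cells and 90008 to 96676 in control cells at day 4, with 0 markers at or under the 25th percentile on all arrays of a group. As a sign of RNA quality, the 3′ to 5′ log2 difference of the transferrin receptor control averaged 1.17 ± 0.12 in KO cells and 1.19 ± 0.14 in control cells at day 12, and 1.26 ± 0.19 in KO cells and 1.06 ± 0.09 in control cells at day 4 (SD, n = 4). That of pyruvate carboxylase averaged 0.792 ± 0.257 in KO cells and 0.613 ± 0.179 in control cells at day 12, and 1.04 ± 0.71 in KO cells and 1.07 ± 0.51 in control cells at day 4. At day 12 actin gave 0.52 ± 0.09 in KO cells and 0.445 ± 0.028 in control cells, and Gapdh -0.33 ± 0.04 and -0.31 ± 0.01. At day 4 actin gave 0.50 ± 0.05 in KO cells and 0.48 ± 0.08 in control cells, and Gapdh -0.28 ± 0.06 and -0.30 ± 0.07. The part of RNA quality in the day effects was not tested.

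The genes whose log2 intensities followed each member most closely over the 16 arrays were found among 11094 genes with a mean above the median. The days separate the arrays, so these Pearson correlations mostly describe the change with time and carry no p. Gata6 was followed most closely by Lgmn (r = 0.983), Amn (0.982) and Srgn (0.979), and Sox17 by Dab2 (0.966), Srgn (0.960) and Ctsh (0.957). Srgn was also first for Gata4 (0.919), before Golga5 (0.919) and Pmf1 (0.909). For Sox7 the 3 were Igf2 (0.939), Tmem147 (0.935) and Me1 (0.929), and for Pdgfra H2-K1 (0.940), St3gal1 (0.937) and Msx2 (0.937). Hnf4a, through its brightest probe set 1450447_at, was followed by Kyat1 (0.891), G6pc3 (0.878) and Atg5 (0.876). Among the members themselves, Gata6 and Sox17 had r = 0.935 over the 16 arrays and 0.682 for deviations from group means, while Gata4 and Pdgfra had 0.782 and -0.21. These correlations are over arrays that share clones and days.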

How the data were processed

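Total RNA was measured on 16 Affymetrix mouse arrays, and the submitters' processing notes name Affymetrix Expression Console and RMA. The deposited values are intensities on a linear scale. All 16 columns hold the same values once sorted, with a largest difference of 0, as quantile normalization gives, so only ranks within an array differ. RMA usually yields log2 values, and who returned these to a linear scale is not given in the sources used here. The series text names the 430A 2.0 array, whereas the table holds 45101 probe sets. The 64 AFFX control sets were dropped and 45037 were tested, of which 34945 have 1 gene symbol in the platform annotation, 932 several and 9160 none.

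The log2 of each deposited intensity was taken with no offset and fitted in limma 3.58.1 (R 4.3.3) with 4 group means and clone, an empirical Bayes variance and Benjamini-Hochberg adjustment over all 45037 probe sets. The fit was tested on simulated data. Arrays of the same clone, day and replicate number were treated as pairs in an alternative: the correlation of KO and control deviations was 0.542 to 0.589 at day 4 and 0.102 to 0.323 at day 12, above 0.1 in each of the 8 pairs. Between days the same correlation was -0.171 to 0.13. Only 2 of the 16 arrays correlated most closely with their own pair among the arrays of the other condition on the same day. Clone was fitted before these deviations were taken, so arrays of the other clone with the same number can match as closely. This count therefore does not decide whether the pairing by clone and replicate number holds. The number of arrays limits the precision. Alternatives were the pair block, blocks of clone and number, single clones and numbers, the compared groups alone, a floor at the 25th percentile, log2(value + 16), an above-median filter, 1 probe set a gene, other priors, and each array left out.

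The members and lists were chosen with earlier results of these data known. Named were all member probe sets, Rybp, the 3 genes most alike to each member, and from each list the called genes or otherwise the 2 largest changes in each direction with a mean above the median. From lists with many called genes only examples are given, and Nanog was added after its values were seen. In each list the probe set with the highest mean stands for its gene.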

Additional observations from a re-analysis of the deposited data

Results flagged for a closer look

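Each of the 16 probe sets was examined within each group of 4 arrays, 64 groups in all, for an array that stands apart from the other 3. An array was picked out where its gap to the nearest array took up a larger part of the group's range, both on log2 intensities, than Dixon's 95% limit for 4 values. Chance alone picks about 5% of groups, and 6 of 64 were picked.

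Gata6 1425464_at was lowest in replicate 1 of clone 15 among the control arrays at day 12, at 265. Sox17 1421657_a_at was lowest in replicate 2 of clone 10 among the control arrays at day 4, at 7.03. Hnf4a 1427001_s_at was highest in replicate 2 of clone 15 among the KO arrays at day 4, at 75.2. The other 3 were in dim probe sets. Gata6 1443081_at was lowest in replicate 2 of clone 10 among the KO arrays at day 12, at 15.7, and in replicate 2 of clone 15 among the control arrays at day 12, at 8.28. Sox7 1432495_at was lowest in replicate 2 of clone 15 among the control arrays at day 12, at 6.67.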

How the results depend on the processing

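With the 8 pairs as a replicate block, 0 of 16 probe sets were called for KO against control at day 12, at day 4 or for the difference between days, the same counts as without it; for Pdgfra 1421917_at at day 12 the adjusted p was 0.0842, and for Gata6 1425464_at 0.0993. The number of members called between days in control cells, 3 in all arrays, was 0 within either clone, within either replicate number or with the compared groups alone, 8 with the floor, 6 on log2(value + 16), 5 of 6 above the median, and 7 with either other prior. Leaving out 1 array gave 1 to 3, with 1 without control day 12 replicate 1 or 2 of clone 10, control day 12 replicate 2 of clone 15, or control day 4 replicate 2 of clone 15. In KO cells the count of 10 was 0 within a clone or number, 4 with the compared groups alone, 6 of 6 above the median, 5 of 6 with 1 probe set a gene, and 8 to 10 with 1 array left out. For KO against control at day 12 it was 1 with the floor, on log2(value + 16), with 1 probe set a gene or with the robust prior, and 2 of 6 above the median. Single clones and numbers leave few arrays, which limits these fits. The count for other extraembryonic endoderm genes fell to 0 in each such fit. With the compared groups alone it was 0 for KO against control at day 12, 1 between days in control cells and 6 in KO cells; leaving out 1 array gave 1 to 3, 12 to 19 and 16 to 23. For KO against control at day 4 it was 1 with the pair block, 0 with the compared groups alone and 0 to 2 with 1 array left out. The targeted transcript kept its direction and missed the threshold for number 1 alone (-3.87, adjusted p = 0.203, at day 12; -4.69, 0.175, at day 4), number 2 alone (-4.31, 0.178; -4.93, 0.233), clone 15 alone (-3.55, 0.191; -4.76, 0.0822) and clone 10 alone at day 4 (-4.86, 0.0607). Calls between replicate numbers, 3 in all, were 1 with the floor. Across these alternatives, values of single member probe sets, some given above, passed the threshold in 36 cases and no longer did in 108. The day 4 count of other extraembryonic endoderm genes, also given above, moved in 20 cases. In the other 2871 cases the side of the threshold was kept or that count did not move. No called value changed sign, while values that were not called did so in 105 cases over 46 results, such as Gata6 1425463_at for KO against control at day 4. Dim probe sets limit what can be read for Gata6 1443081_at, Sox7 1432495_at and Hnf4a 1427000_at.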
